A study of Mus musculus with 17 samples.

Results

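The gastrocnemius transcriptomes of middle-aged mice fed D-allulose (ALL) were compared with those of middle-aged mice fed the control diet (Middle-aged). The samples were chosen by their titles, which gave 4 ALL and 6 Middle-aged mice, 10 of the 17 mice in all, and every gene in the count table was considered. Mice of both groups were male C57BL/6J animals (the strain field spells it C56BL/6J), housed individually and labelled as 12 months of age. The study's methods give 48 weeks at allocation and 61 weeks at the end, after a week of acclimation and 12 weeks of feeding. Both diets were based on the purified AIN-93G diet, and the ALL diet held 3% D-allulose (w/w) in place of cellulose, so ALL mice differed from Middle-aged mice in fiber as well as in allulose. The other 7 mice (Mature), 8 weeks old at allocation, 21 weeks old at the end and fed the control diet, entered the fit to estimate the spread between mice and are given as a level of reference. The question was which transcripts of the aging muscle differ when the sugar is added to the diet.

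D-allulose is a rare sugar, the epimer of fructose at the third carbon, and little of it is used as fuel. It is taken up in the gut by the fructose transporter, phosphorylated mainly in liver and largely excreted, and in rodents it is known for lowering fat mass and blood glucose. The gastrocnemius is a calf muscle made mostly of fast, glycolytic fibers, with capillaries, nerve branches, connective tissue, resident macrophages, mast cells and some fat between them, so the RNA of a whole piece of muscle is a mixture. Muscle mass is held by the balance of IGF-1 and insulin signaling through AKT and mTOR, which favors protein synthesis, against myostatin signaling, FoxO factors and the ubiquitin ligases atrogin-1 and MuRF1, which favor breakdown.

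Libraries of both groups had similar depth, 61832304 to 72640511 assigned reads in Middle-aged and 64018538 to 70544150 in ALL. Genes of the mitochondrial genome took 15.2 to 23.5% of the counts in Middle-aged (19.2% ± 3.26, SD, n = 6) and 16.7 to 21.8% in ALL (18.7% ± 2.19, SD, n = 4), a difference of −0.468 percentage points (exact two-sided permutation test over 210 splits, p = 0.83). The extraction text in the sample labels names adipose tissue and liver, but the libraries were muscle. Acta1 (skeletal actin) was between 17800 and 29700 TPM (transcript abundance scaled to gene length and library) in the 10 libraries, Alb (albumin) was at most 0.316 TPM and Apoa1, Ttr and Fga were at 0, whereas the adipocyte gene Adipoq ranged from 0.474 to 21.8 TPM. On the first principal component, which held 17.6% of the variance of the 10 libraries, replicate 2 of ALL (24.7) lay apart from the other 3 ALL mice (−22.5 to −19.4), and replicates 2 (37.2) and 5 (26.1) of Middle-aged lay farthest to the same side. Replicate 6 of Middle-aged was at 15.7 and the rest of that group at −20.2 to −4.6, so Middle-aged was spread along this component. The second component (14.3%) set replicate 6 of Middle-aged (37.1) and replicate 4 of ALL (30.3) opposite replicate 2 of ALL (−30.2). The gene lists were computed with and without the 3 libraries named for the first component together, a set chosen after seeing the data. The values without them are given for many of the lists whose sign or size moved. No other set was left out together.

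No gene passed the test. In edgeR's quasi-likelihood test with Benjamini-Hochberg adjustment, 0 of 16731 genes (0%) differed between ALL and Middle-aged at a false discovery rate (FDR) under 0.05, and the smallest FDR was 0.801, shared by Dclre1c, Cilp and Ccn6. Among the other tools, DESeq2 called 2 genes, edgeR's likelihood ratio test 4 and limma voom with sample quality weights 1, and without replicate 3 of ALL edgeR's quasi-likelihood test called 1. At an unadjusted p under 0.05, 241 genes (1.44%) were higher and 362 (2.16%) were lower in ALL, together 603 genes or 3.6%. The values of all 4 ALL mice lay above those of all 6 Middle-aged mice for 42 genes (0.251%) and below them for 38 genes (0.227%). Of the genes tested, 8114 had a higher and 8617 a lower estimate in ALL, with a median log2 fold change (logFC, ALL minus Middle-aged) of −0.005. The standard error (SE) of these estimates had a median of 0.140 and ran from 0.072 at the tenth percentile to 0.477 at the ninetieth. An estimate of more than 2-fold in either direction was seen for 310 genes, of which 43 had a mean above 1 CPM (counts scaled to the library total; logCPM over 0). Genes and groups named from here on did not pass, unless an alternative test is stated, and their values are a description of these 10 mice.

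**Figure D1:**
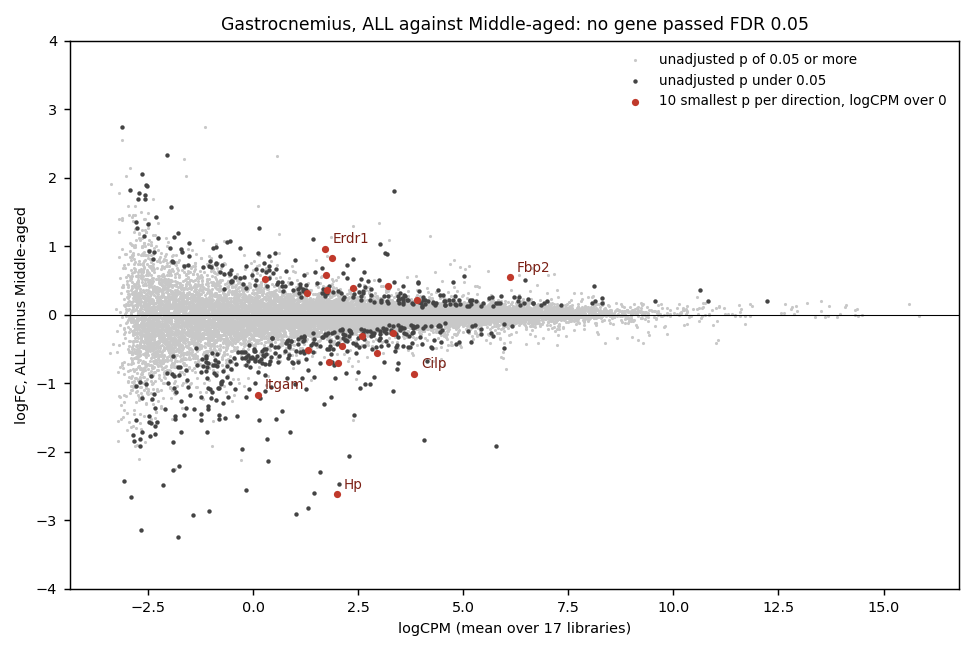
Each point is a gene, with its mean level over 17 libraries (logCPM, x axis) and its logFC, ALL minus Middle-aged (y axis, limited to −4 to 4, which leaves out 5 genes). Genes with an unadjusted p under 0.05 are dark and the 20 of smallest p with logCPM over 0 are red; none of the 16731 genes passed FDR 0.05, and the spread of the estimates widens toward low levels.

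Among genes with logCPM over 0 that were lower in ALL, Dclre1c had the smallest p. Dclre1c (chromosome 2, 3424061 to 3474211, GRCm38) encodes Artemis, a nuclease that opens DNA ends during repair by end joining. Its level was 3.12, 2.45, 2.94 and 3.23 CPM in the 4 ALL mice and ran from 3.52 through a median of 4.66 to 5.64 CPM in Middle-aged. The groups did not overlap, with a logFC of −0.70 ± 0.14 (SE; 95% interval −0.98 to −0.41, FDR = 0.801). Cilp (chromosome 9, 65265180 to 65280614), an extracellular matrix protein of cartilage and tendon that binds TGF-beta, was next. It was at 9.44, 10.6, 11.9 and 13.3 CPM in ALL, against 15.2 to 26.6 CPM (median 20.8) in Middle-aged, again without overlap (logFC = −0.86 ± 0.18, interval −1.25 to −0.48, FDR = 0.801). The 7 Mature mice had 6.18 to 13.5 CPM of Cilp, and 3.22 to 4.83 CPM of Dclre1c. Both genes passed FDR 0.05 in DESeq2 and in edgeR's likelihood ratio test, with FDR = 0.0146 for each in DESeq2 and 0.025 for each in the likelihood ratio test. The direction of both was the same in all 23 alternatives, with a logFC of −0.95 to −0.68 for Cilp and −0.77 to −0.49 for Dclre1c.

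Itgam (chromosome 7, 128062640 to 128118491), the CD11b chain of the integrin that myeloid cells use to adhere, was at 0.591, 0.667, 0.476 and 0.368 CPM in ALL. The Middle-aged mice had 0.852 to 1.7 CPM (median 1.15), so that no ALL mouse reached the lowest of them (logFC = −1.17 ± 0.27, FDR = 0.9997). The Mature median of Itgam was 1.07 CPM, also above every ALL mouse. Tgfb1, the ligand of the TGF-beta receptors, was at 1.96, 1.73, 1.76 and 2.14 CPM in ALL and 2.1 to 3.22 CPM (median 2.78) in Middle-aged (−0.51 ± 0.15), with only replicate 4 of ALL above the lowest Middle-aged mouse. Galnt16, which starts mucin-type sugar chains, Slc25a17, the peroxisomal carrier of cofactors, and the zinc finger gene Zfp354a did not overlap between the groups either. Their logFC was −0.46 ± 0.14, −0.27 ± 0.08 and −0.31 ± 0.09. Medians in Mature, Middle-aged and ALL were 5.29, 4.39 and 3.01 CPM for Galnt16 and 10.6, 10 and 8.84 CPM for Slc25a17. For Zfp354a they were 6.42, 6.47 and 5.01 CPM. Unlike Cilp, these genes did not lie toward the Mature level in ALL. The highest ALL and lowest Middle-aged mice were at 3.42 and 3.49 CPM for Galnt16, and at 5.09 and 5.15 CPM for Zfp354a. These lower genes were picked by smallest p, which favors separation. Over all genes 0.227% lay below every Middle-aged mouse.

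Ucp2, an uncoupling protein abundant in macrophages and other non-muscle cells, was at 6.65, 4.23, 5 and 5.22 CPM in ALL against 5.48 to 10.2 CPM in Middle-aged (logFC = −0.56 ± 0.17). Its median was 8.74 CPM in Mature, 7.96 CPM in Middle-aged and 5.11 CPM in ALL. Ntrk2, the BDNF receptor TrkB, was at 2.08 to 2.41 CPM in ALL and spread from 2.33 to 5.47 CPM in Middle-aged (−0.70 ± 0.21). Hp (haptoglobin, which binds free hemoglobin and is made by liver and fat) had an estimate of −2.62 ± 0.80, but the Middle-aged mice spread from 0.623 to 16.6 CPM around a median of 3.09, and all 4 ALL mice (0.788, 0.44, 0.381 and 1.72 CPM) lay within that range or below it. Hp was highest in replicate 1 of Middle-aged, which was also highest in the adipocyte genes given below.

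Of the genes with logCPM over 0 and higher values in ALL, Erdr1 had the smallest p, with 2.40, 3.32, 7.33 and 4.80 CPM in ALL and 1.86 to 2.78 CPM (median 2.17) in Middle-aged (logFC = 0.96 ± 0.25, FDR = 0.9997). Mid1, a microtubule-bound ubiquitin ligase, had a logFC of 0.83 ± 0.26 that rested on a single mouse: replicate 1 of ALL was at 10.2 CPM and the other 3 at 2.95 to 3.28, beside 2.34 to 3.14 CPM in Middle-aged. Without that mouse the logFC of Mid1 was 0.18. Both genes lie at the end of the X chromosome, in and next to the pseudoautosomal region, where copies and repeats make the assignment of reads uncertain. Ppp1r16b, a regulatory subunit of protein phosphatase 1 found in endothelium, was at 3.17, 4.30, 2.57 and 2.62 CPM in ALL and 1.93 to 2.34 CPM in Middle-aged, with no overlap (0.57 ± 0.15). The Mature mice had 3.38 to 5.33 CPM of it.

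Fbp2, the fructose bisphosphatase of muscle, which works against glycolysis and toward glycogen, was at 71.8, 44.0, 77.8 and 75.1 CPM in ALL. Middle-aged mice had 37.9 to 54.5 CPM (median 46.1), so replicates 1, 3 and 4 of ALL were above all of them and replicate 2 was below their median (logFC = 0.55 ± 0.17), and Mature mice had 57.1 to 110 CPM. Of these 10 genes 4 did not overlap between the groups, beside 0.251% of all genes that lay above every Middle-aged mouse. The 10 were picked by smallest p in this comparison, which favors separation. The 4 were Ppp1r16b, the interferon-induced antiviral gene Rsad2 (0.38 ± 0.12), the Notch pathway ubiquitin ligase Neurl1b (0.32 ± 0.10) and the uncharacterized Gm527 (0.52 ± 0.16). For Gm527 the lowest ALL mouse was at 1.13 CPM and the highest Middle-aged mouse at 1.1 CPM. The olfactory receptor Olfr78, which occurs in vascular smooth muscle, the zinc finger gene Zfp771 and 2210016L21Rik had a logFC of 0.36 ± 0.11, 0.42 ± 0.12 and 0.21 ± 0.06, with at least 1 ALL mouse inside the Middle-aged range. The median of 2210016L21Rik was 13.6 CPM in Mature, 14.9 CPM in Middle-aged and 17.6 CPM in ALL, so ALL lay farther from Mature.

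**Figure D2:**
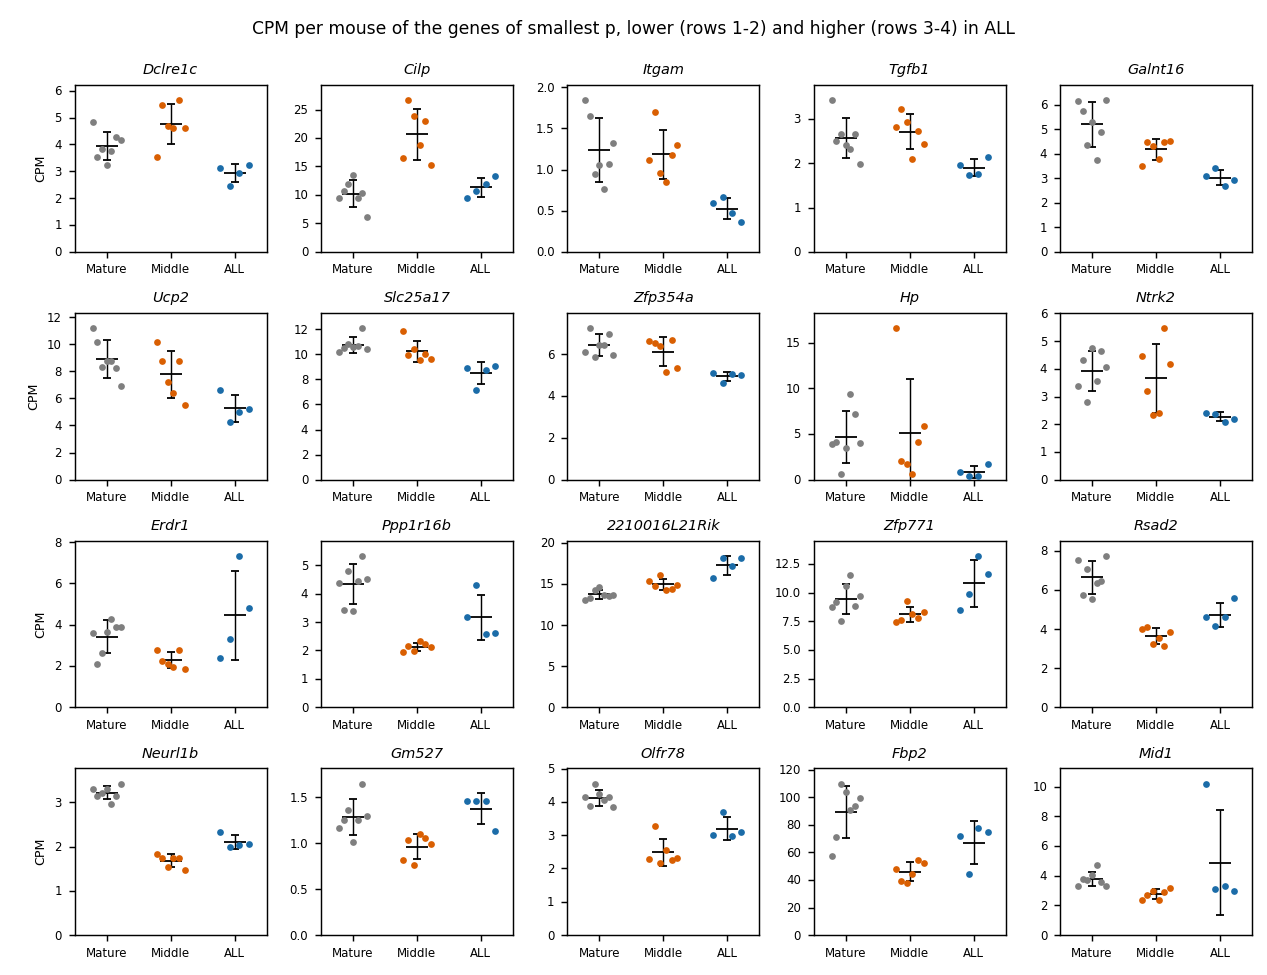
CPM per mouse (y axis, from 0) of the 20 genes of smallest p, 10 lower and 10 higher in ALL, in 7 Mature, 6 Middle-aged and 4 ALL mice; points are mice, with the group mean and SD. Cilp lies at 9.44 to 13.3 CPM in ALL and 15.2 to 26.6 CPM in Middle-aged, whereas Mid1 is set apart by a single ALL mouse at 10.2 CPM.

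Of 15 macrophage and myeloid genes tested, 15 were lower and 0 passed, with a median logFC of −0.638 against −0.005 over all genes, and 4 were lower at an unadjusted p under 0.05 (Itgam, Ccr2, Cd163 and Lyz2). Their summed level was 34.9 to 75.2 CPM in Middle-aged and 17.9 to 45.4 CPM in ALL, so the groups overlapped. Over all genes tested, 8617 of 16731 were lower in ALL. At an unadjusted p under 0.05, 2.16% of all genes were lower and 1.44% higher. The counts of this list and of the later lists are to be read beside these shares. In a whole piece of muscle, fewer cells of a type and less RNA per cell cannot be told apart.

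Cd163, the scavenger receptor for hemoglobin of resident macrophages, was at 5.99, 4.25, 2.95 and 2.80 CPM in ALL and 4.36 to 12.1 CPM (median 6.71) in Middle-aged (logFC = −0.83 ± 0.36). Lyz2 (lysozyme of myeloid cells) was at 16.4, 19.5, 9.85 and 6.51 CPM in ALL and 13.2 to 29.9 CPM in Middle-aged (−0.67 ± 0.31). Replicates 3 and 4 of ALL were the lowest for both, and below all Middle-aged mice. Without replicate 4 of ALL the median of the 15 genes was −0.442 with 12 of 15 lower, and without replicate 2 of ALL it was −0.864. Without replicate 2 of ALL and replicates 2 and 5 of Middle-aged together, 14 of 15 were lower with a median of −0.577.

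A list of 20 genes that most leukocytes share, Itgam included, was chosen after the values had been seen. It was lower throughout, 20 of 20 with 9 at an unadjusted p under 0.05 (median −0.551). A choice made that way favors a shared direction, so these counts are no independent evidence. Selplg, the ligand that leukocytes offer to selectins on the vessel wall, was at 0.288, 0.312, 0.46 and 0.324 CPM in ALL and 0.55 to 1.04 CPM in Middle-aged (logFC = −1.21 ± 0.30). Fermt3, the integrin activator of blood cells, did not overlap either (−1.25 ± 0.36), nor did Itgam, and Myo1f, a myosin of leukocytes, was at −1.07 ± 0.34. These transcripts were near or under 1 CPM. The estimate stayed lower for 19 of 20 genes without the 3 libraries together (median −0.503).

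Mast cell genes were also chosen after the values had been seen, so their rank and counts are no independent evidence either. They had the lowest median of any list, −1.467, with 8 of 9 lower and 6 at an unadjusted p under 0.05. Hdc, which makes histamine, was at 0.243, 0.0567, 0 and 0.0589 CPM in ALL and 0.131 to 0.928 CPM in Middle-aged (logFC = −2.22 ± 0.66). The tryptase Tpsb2 was at 0.622, 1.23, 0.841 and 0.442 CPM in ALL against 0.639 to 4.84 CPM (−1.52 ± 0.50), and the chymase Cma1 at 0.28 to 0.851 CPM against 0.721 to 4.22 CPM (−1.55 ± 0.52). Replicate 5 of Middle-aged was the highest mouse for all 3 genes, and the Middle-aged mice overlapped the ALL mice through replicate 4. The receptor of interleukin 33, Il1rl1, was at −1.47 ± 0.46. Without replicate 5 of Middle-aged the median of the list was −1.08. Without the 3 libraries together it was −0.988, with 7 of 9 lower and 2 at an unadjusted p under 0.05. The summed level of the list was 5.2 to 22.9 CPM in Middle-aged, 3.61 to 8.78 CPM in ALL and 3.77 to 12.1 CPM in Mature. Tpsb2, Cma1, the class II genes and C4b have close relatives in the genome, so the share of reads given to each is uncertain.

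Genes of alternatively activated macrophages were the third list chosen after the values had been seen, with the same limit. They were lower in 12 of 12 (median −0.912, 6 at an unadjusted p under 0.05). Retnla, a secreted protein of such macrophages, was at 2.53, 6.10, 3.48 and 3.55 CPM in ALL and 4.44 to 11.2 CPM (median 8.09) in Middle-aged (logFC = −1.01 ± 0.33). Ccl9 and Ccl6, chemokines of myeloid cells, and the lectin Fcna were at −0.91 ± 0.29, −0.92 ± 0.32 and −1.51 ± 0.48. The defining genes Arg1 and Chil3 of this state did not reach the minimum count and were not tested.

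Of 18 antigen presentation genes, 10 were lower (median −0.075, and 0.037 without replicate 2 of Middle-aged), and the 3 with an unadjusted p under 0.05 were the class II chains H2-Aa (−0.71 ± 0.29) and H2-Ab1 (−0.69 ± 0.33) and their regulator Ciita (−0.74 ± 0.33). H2-Aa was highest in replicate 2 of Middle-aged at 23.3 CPM, next to 8.36 to 13.5 CPM in the other 5 mice of that group and 4.92 to 12.4 CPM in ALL. All 15 T cell and NK cell genes were below the minimum count. B and plasma cell genes were 5 higher and 5 lower of 10, and the immunoglobulin light chain Igkc was at 0.397 to 2.24 CPM in ALL and 0.444 to 5.02 CPM in Middle-aged (−1.03 ± 0.51).

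Complement genes, made in muscle mainly by fibroblasts and macrophages, were lower in 17 of 19 (median −0.379), and 3 had an unadjusted p under 0.05. Without replicate 2 of ALL the median was −0.587 with 10 such genes, and without replicate 4 of ALL it was −0.230 with 2. C4b, of the classical pathway, was at 4.81, 4.68, 3.17 and 2.62 CPM in ALL and 4.38 to 13.5 CPM (median 7.79) in Middle-aged (logFC = −1.07 ± 0.39). C1qa, a chain of the recognition complex C1q that macrophages make, was at 4.67, 5.06, 2.57 and 1.31 CPM against 4.2 to 9.62 CPM (−0.86 ± 0.37). For both genes, replicates 3 and 4 of ALL were below all Middle-aged mice and replicates 1 and 2 were not. The third was Cfd (adipsin), which is an adipocyte product.

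Adipocyte genes were 12 of 15 lower, with a median of −0.300, and 6 were lower at an unadjusted p under 0.05. Cidec, which fuses lipid droplets, was at 0.758, 0.326, 0.397 and 2 CPM in ALL and 0.82 to 15.8 CPM (median 2.38) in Middle-aged (logFC = −2.47 ± 0.85). Adiponectin (Adipoq) was at 1.24, 0.355, 1.02 and 3.11 CPM against 1.54 to 17.2 CPM (−2.07 ± 0.77), and leptin (Lep) at 0.127 to 1.49 CPM against 0.246 to 14.7 CPM (−2.83 ± 1.06). Within Middle-aged, replicate 1 was the highest and replicate 6 the next for all 3, and replicates 2, 3 and 4 lay at ALL levels or near them.

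Plin1 (−2.14 ± 0.87), Retn (−1.82 ± 0.78) and Cfd (−1.84 ± 0.65) had the same pattern. In contrast, Car3, a carbonic anhydrase shared by fat and muscle, was 0.36 ± 0.17 higher, and Fabp4, shared with capillaries, was at −0.21. Leaving out replicate 1 of Middle-aged left 9 of 15 genes lower and 2 rather than 6 at an unadjusted p under 0.05, with a median of −0.294. Without the 3 libraries together the median was −0.423. The Mature mice, with 0.654 to 12.7 CPM of Adipoq, were as variable. The part of fat in the pieces of muscle in the other results was not tested.

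Scd1, the desaturase that makes oleate in fat cells and liver, was highest in replicates 1 and 6 of Middle-aged as well. It was at 16.2, 13.6, 8.68 and 29.8 CPM in ALL and 11.7 to 153 CPM in Middle-aged (logFC = −1.91 ± 0.65). Over 30 genes of lipid and cholesterol synthesis, 19 were lower and the median was −0.025. The elongase Elovl5 was at 0.19 ± 0.08.

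Matrix genes were lower in 31 of 35 (median −0.238) and 4 had an unadjusted p under 0.05. The fibrillar collagens Col1a1 and Col3a1 were at −0.49 ± 0.23 each. Col1a1 was at 8.97, 9.67, 8.14 and 7.22 CPM in ALL and 7.74 to 16.6 CPM (median 11.8) in Middle-aged, beside 19.2 to 47.8 CPM in Mature, so that ALL and Middle-aged both lay below Mature. The gelatinase Mmp9 (−1.29 ± 0.51) reached 2.19 CPM in replicate 5 of Middle-aged, and the membrane collagenase Mmp14 was at −0.46 ± 0.21. Without the 3 libraries together, 25 of 35 were lower with a median of −0.191 and none had an unadjusted p under 0.05. Fibroblast and fibro-adipogenic progenitor genes were lower in 13 of 14 (median −0.283), with Cxcl14 at −0.44 ± 0.25. Tendon genes, Cilp included, were lower in 7 of 13 with a median of −0.080. Without replicate 5 of Middle-aged that median was 0.233 (8 of 13 higher), and without the 3 libraries it was 0.270 (9 of 13 higher).

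Schwann cell and myelin genes had the highest median of any list, 0.772, with 16 of 16 higher and 5 at an unadjusted p under 0.05. Sox10, the transcription factor that defines the lineage, was at 0.985, 0.652, 1.70 and 1.34 CPM in ALL and 0.242 to 1.13 CPM (median 0.301) in Middle-aged (logFC = 1.26 ± 0.40). The myelin gene Prx was at 4.82, 2.86, 8.90 and 10.9 CPM against 1.76 to 6.79 CPM (1.03 ± 0.45). Replicate 4 of Middle-aged was the highest of its group and replicate 2 the lowest of ALL for both. Its partner Drp2 (0.89 ± 0.41) and the adhesion molecule Mag (0.99 ± 0.44) had that order too, with Mag at 0.557 CPM in this Middle-aged mouse and at most 0.267 CPM in the other 5.

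Without replicate 4 of Middle-aged the median of the myelin list was 1.199 and 12 of 16 had an unadjusted p under 0.05. Without replicate 4 of ALL it was 0.550, with 1 of 16. Leaving out replicate 2, 5 or 6 of Middle-aged, or the 3 libraries together, also left 1 of 16. The summed level of the list was 45.7 to 109 CPM in Middle-aged, 61.1 to 137 CPM in ALL and 94.2 to 478 CPM in Mature. At the neuromuscular junction, 9 of 21 genes were higher and 11 lower (median −0.010), with Colq, which anchors acetylcholinesterase, at −0.24 ± 0.11.

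Endothelial genes were higher in 18 of 21 (median 0.144). Aplnr, the apelin receptor of sprouting vessels, was at 2.61, 5.43, 1.65 and 2.24 CPM in ALL and 1.21 to 2.65 CPM in Middle-aged (logFC = 0.61 ± 0.26), with replicate 2 of ALL alone above the Middle-aged range, and 5.68 to 8.62 CPM in Mature. Ptprb, a phosphatase of the endothelial junction, was at 0.20 ± 0.10. Of 14 smooth muscle and pericyte genes 11 were higher (median 0.064), and the Notch target Heyl was at 0.33 ± 0.14. Red blood cell genes were higher in 7 of 7 (median 0.352), but without replicate 1 of ALL, in which the heme synthesis gene Alas2 reached 7.73 CPM against 1.30 to 2.18 CPM in the other ALL mice, the median was −0.218.

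**Figure D3:**
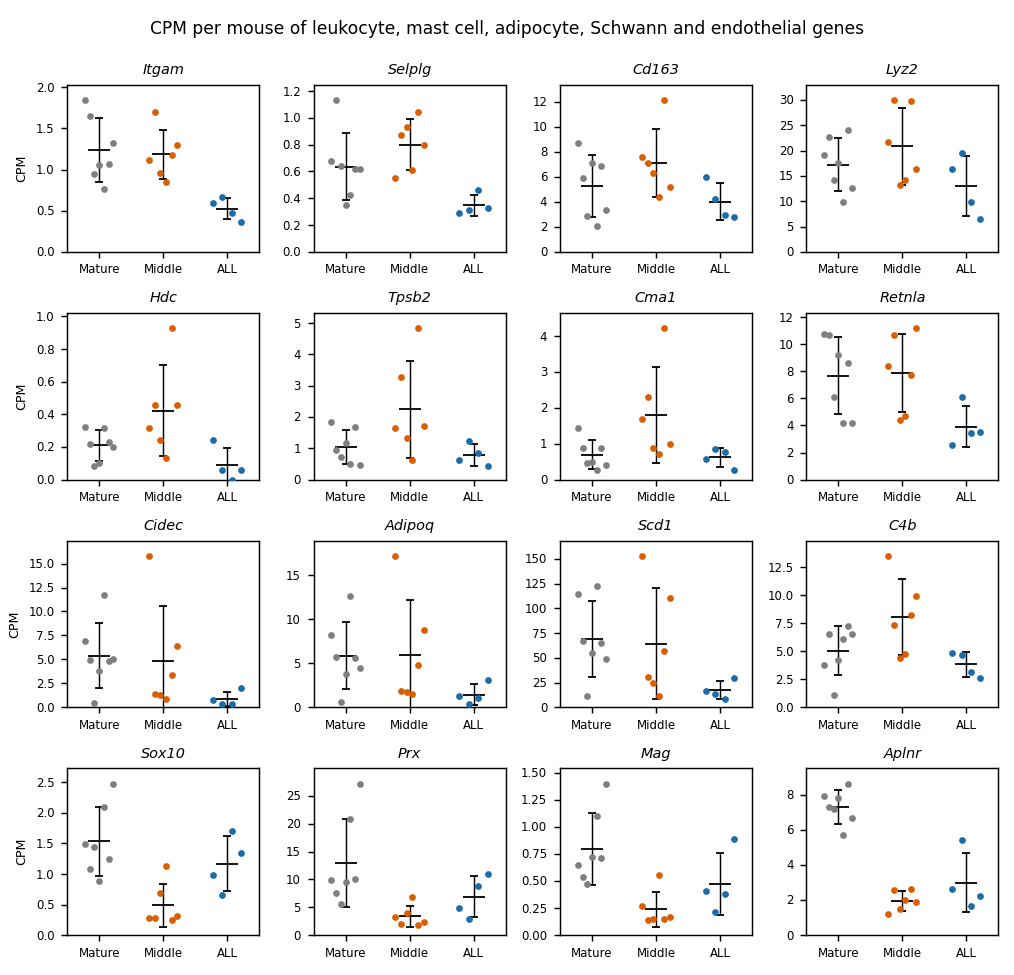
CPM per mouse (y axis, from 0) of leukocyte and macrophage genes, mast cell genes, adipocyte genes with C4b, Schwann cell genes and the endothelial gene Aplnr, in 7 Mature, 6 Middle-aged and 4 ALL mice, with the group mean and SD. Adipoq spreads from 1.54 to 17.2 CPM within Middle-aged alone, while Itgam and Selplg do not overlap between Middle-aged and ALL.

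Fast fiber genes were higher in 15 of 18 with a median of 0.094, from −0.147 to 0.173. Slow fiber genes were higher in 16 of 18 (median 0.465) but were among the most variable, with a summed level of 1820 to 7010 CPM in Middle-aged and 3400 to 6070 CPM in ALL. Their median was 0.044 without replicate 3 of ALL and 0.285 without the 3 libraries together. The light chain Myl2 was at 90.8, 98.8, 206 and 47.6 CPM in ALL and 24.3 to 140 CPM in Middle-aged (logFC = 0.68 ± 0.66). Pln, the inhibitor of the slow calcium pump, was at 0.61 ± 0.28. Of 20 genes of satellite cells and myogenesis 12 were higher (median 0.019). Myh3, the embryonic myosin, was at 14.2, 9.90, 11.8 and 13.6 CPM in ALL and 2.69 to 10.5 CPM in Middle-aged (0.88 ± 0.29), with only replicate 2 of ALL inside the Middle-aged range.

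Sugar metabolism was examined because allulose enters by fructose routes. Of 19 genes of glucose and fructose transport, fructose breakdown and the carbohydrate sensor ChREBP, 12 were higher and 7 lower with a median of 0.032, and Fbp2 was the only one with an unadjusted p under 0.05. The fructose transporter gene Slc2a5 and the liver-type bisphosphatase gene Fbp1 were below the minimum count. Glycolysis and glycogen genes were higher in 25 of 32 (median 0.084). Pgk1 (phosphoglycerate kinase) was at 750, 752, 786 and 813 CPM in ALL and 630 to 726 CPM (median 671) in Middle-aged, without overlap, for a logFC of 0.21 ± 0.07. Muscle enolase, Eno3, was at 0.20 ± 0.09 and triosephosphate isomerase, Tpi1, at 0.19 ± 0.09. On the linear scale these estimates were under 1.5-fold for all 3.

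Respiratory chain genes encoded in the nucleus were higher in 63 of 74 with a median of 0.044, and Atp5o, a subunit of ATP synthase, was at 0.18 ± 0.08. Leaving out replicate 2 of ALL, in which Atp5o was 397 CPM next to 301 to 332 CPM in the other 3, left 32 of 74 higher and a median of −0.007, and without the 3 libraries 21 of 74 were higher (−0.027). The 13 mitochondrially encoded proteins had a median of −0.016, 4 higher and 9 lower, within −0.038 to 0.054. Of these, 13 of 13 were lower without the 3 libraries together (−0.118) and higher without replicate 1 of Middle-aged (0.070). Of 34 genes of fatty acid uptake and oxidation 23 were lower (median −0.040), but 32 of 34 were lower without replicate 1 of ALL (−0.144) and 11 of 34 without replicate 1 of Middle-aged (0.047). The carnitine transferase Cpt1a was at −0.27 ± 0.12. Cpt1a was lowest in replicate 2 of ALL, 7.12 CPM against 11.1 to 11.9 CPM in the other ALL mice. Of 27 AMPK, PGC-1 and PPAR regulators 14 were higher (median 0.002), and 8 without the 3 libraries (−0.042), and the AMPK subunit Prkag2 was at 0.23 ± 0.11.

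Immediate early genes, which switch on within minutes of contraction, stress or handling, were lower in 33 of 39 (median −0.259), and 7 had an unadjusted p under 0.05. Sik1, a kinase that follows cyclic AMP, was at 9.96, 4.21, 8.82 and 10.2 CPM in ALL, 8.56 to 14.3 CPM (median 11.6) in Middle-aged and 6.72 to 8.90 CPM in Mature (logFC = −0.45 ± 0.18, FDR = 0.9997). Klf4, a transcription factor that restrains proliferation, was at 12.7, 7.63, 8.46 and 9.15 CPM in ALL, 8.77 to 21.2 CPM (median 12.0) in Middle-aged and 7.87 to 10.3 CPM in Mature (−0.47 ± 0.18). The anti-proliferative Btg2 was at 16.4, 10.5, 14.4 and 18.4 CPM in ALL against 11.7 to 25.3 CPM (−0.43 ± 0.18). For all 3 genes replicate 2 was the lowest ALL mouse, and at least 1 ALL mouse lay within the Middle-aged range.

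Csrnp1, another nuclear early response gene, was at −0.70 ± 0.27. The number of these genes with an unadjusted p under 0.05 was 0 of 39 without replicate 2 of ALL (median −0.244, 33 lower), 10 without replicate 6 of Middle-aged, and 3 without the 3 libraries together (median −0.171, 28 lower). Glucocorticoid target genes were lower in 18 of 21 (median −0.239), with Errfi1, a brake on EGF receptor signaling, at −0.40 ± 0.18. Without replicate 2 of ALL their median was −0.029 and 11 of 21 were lower, so this group rested on that mouse. Per1, a clock gene that glucocorticoids induce, was at 65.9, 19.1, 67.3 and 83.9 CPM in ALL and 69.9 to 86.9 CPM in Middle-aged (−0.41 ± 0.27). Clock genes, Per1 included, were lower in 12 of 20 with a median of −0.049, and in 10 of 20 without the 3 libraries (0.002).

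Ajuba, a LIM protein of the Hippo pathway and of cell junctions, was at 1.64, 1.18, 1.46 and 2.31 CPM in ALL and 1.12 to 1.88 CPM (median 1.38) in Middle-aged, so 3 of the 4 ALL mice were inside the Middle-aged range, while Mature mice had 1.86 to 3.02 CPM. Its logFC was 0.20 ± 0.20 with an interval of −0.23 to 0.62, and it was −0.01 without replicate 4 of ALL. Sik1, Klf4, Btg2 and Ajuba were singled out in the study from these same libraries, so their direction here is no independent evidence. Hippo pathway genes as a group were 10 higher and 13 lower of 23 (median −0.004), with the junction protein Amotl2 at −0.28 ± 0.13.

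The IGF-1, myostatin and atrophy lists had medians from −0.071 to −0.005, beside −0.005 over all genes. IGF-1, insulin and mTOR genes were 13 higher and 16 lower of 29 (median −0.005). Igf1 was at 18.3, 10.2, 16.6 and 10.5 CPM in ALL and 9.58 to 16.8 CPM (median 11.7) in Middle-aged, a logFC of 0.21 ± 0.25, and Mtor was at 37.1 to 47.3 CPM in ALL and 38.0 to 48.1 CPM in Middle-aged (−0.03 ± 0.10). Igfbp4, a binding protein that holds back IGF-1, was at 28.8, 32.1, 20.6 and 23 CPM in ALL, 28.0 to 42.7 CPM (median 35.7) in Middle-aged and 18.3 to 29.7 CPM in Mature (−0.42 ± 0.15). Akt1, the kinase between the insulin receptor and mTOR, was at 0.17 ± 0.08 and the receptor substrate Irs1 at 0.40 ± 0.20.

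Myostatin and activin pathway genes were 7 higher and 13 lower of 20 (median −0.071). Of these, 3 were lower at an unadjusted p under 0.05 (Tgfb1, Inhbb and Acvr1c), beside 2.16% of all genes. Myostatin itself (Mstn) was at 104, 89.2, 96.1 and 128 CPM in ALL and 77.6 to 105 CPM (median 99.0) in Middle-aged (logFC = 0.14 ± 0.15). Without the 3 libraries together the list was 10 higher and 10 lower (median −0.008), with 1 lower at an unadjusted p under 0.05. The activin subunit Inhbb did not overlap, at 0.501 to 0.746 CPM in ALL and 0.77 to 1.05 CPM in Middle-aged (−0.59 ± 0.28), and the activin-type receptor Acvr1c, which adipocytes express, was at −1.38 ± 0.61.

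Among atrophy ligases and FoxO factors, 18 of 23 were lower with a median of −0.052. This order rested on replicate 2 of ALL, without which 10 of 23 were lower (median 0.009), and without the 3 libraries together 12 of 23 were lower (−0.009). Trim63 (MuRF1) was at 431, 224, 371 and 762 CPM in ALL and 421 to 863 CPM (median 542) in Middle-aged (logFC = −0.41 ± 0.31). Fbxo32 (atrogin-1) was at 643, 520, 552 and 998 CPM in ALL and 584 to 1200 CPM (median 703) in Middle-aged (−0.18 ± 0.25). In ALL, replicate 2 was the lowest and replicate 4 the highest for both ligases, while in Middle-aged replicate 5 was the highest. Foxo1 had a logFC of −0.31 ± 0.32 that became 0.08 without replicate 3 of Middle-aged, which was at 77.0 CPM next to 19.8 to 37.0 CPM in the other 5, and Foxo3 was at −0.17 ± 0.16. Nedd4l, a ubiquitin ligase of ion channels, was at 28.0, 26.3, 23.2 and 36.3 CPM in ALL and 21.0 to 25.5 CPM in Middle-aged (0.28 ± 0.13). The study also names Nedd4l, as a possible shared target of its diets, from these same libraries. Its direction here is therefore no independent evidence. Autophagy and lysosome genes had a median of −0.035 (20 of 26 lower) and no member with an unadjusted p under 0.05, and proteasome genes a median of 0.002 (16 higher and 16 lower of 32, within −0.120 to 0.087). Without the 3 libraries 11 of 26 and 4 of 32 were lower (medians 0.027 and 0.044).

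**Figure D4:**
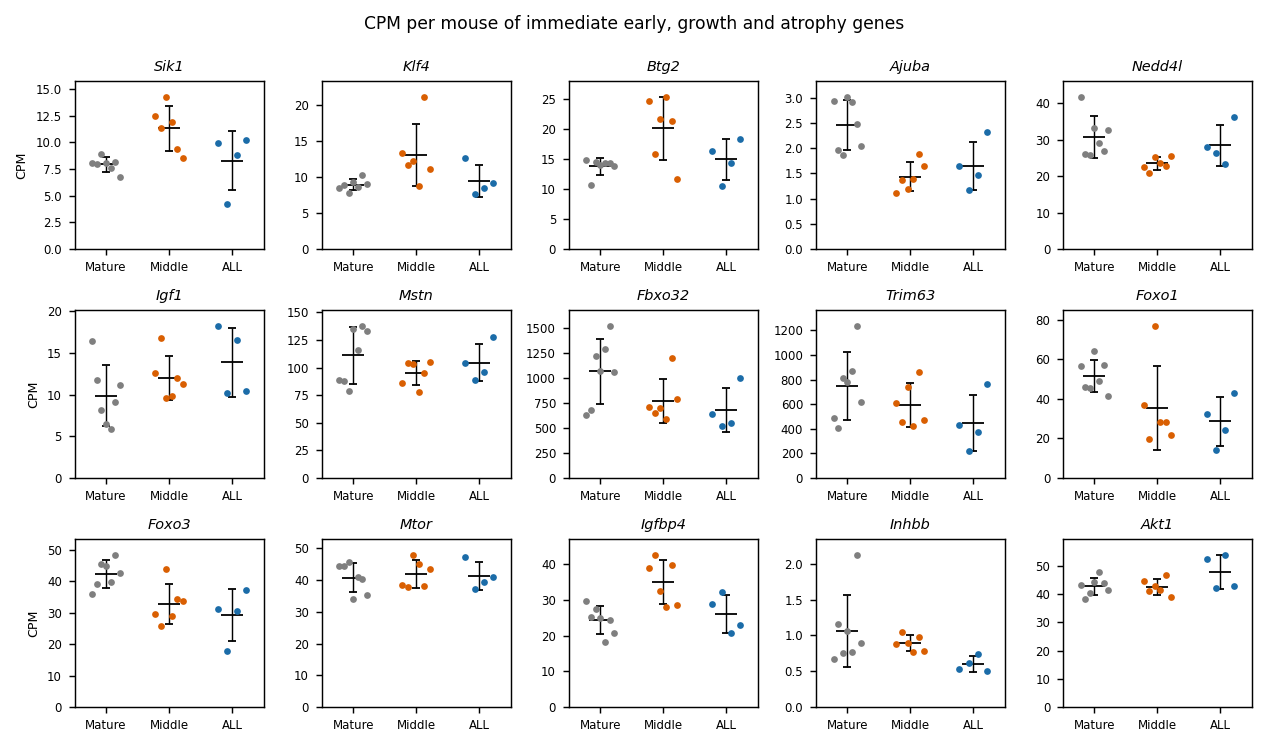
CPM per mouse (y axis, from 0) of immediate early genes, Ajuba and genes of growth and atrophy signaling in 7 Mature, 6 Middle-aged and 4 ALL mice, with the group mean and SD. Trim63 lies at 224 to 762 CPM in ALL and 421 to 863 CPM in Middle-aged, and Mstn at 89.2 to 128 CPM and 77.6 to 105 CPM.

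Inflammatory cytokine and NF-kB genes were 11 higher and 17 lower of 28 (median −0.050), and the cytokines Tnf, Il1b, Il1a and Il10 were below the minimum count. The NF-kB subunits Nfkb2 and Rela were at −0.21 ± 0.09 and −0.15 ± 0.07. Interferon response genes had the opposite sign, 27 of 34 higher with a median of 0.205. Rsad2 was at 4.61, 4.14, 4.60 and 5.57 CPM in ALL and 3.12 to 4.08 CPM in Middle-aged, below the 5.56 to 7.74 CPM of Mature, Xaf1 was at 0.31 ± 0.12 and Parp14 at 0.28 ± 0.13. Ifi27l2a went the other way (−1.31 ± 0.46). Without replicate 2 of ALL the median of this list was 0.028, and without the 3 libraries it was 0.064 with 21 of 34 higher.

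Antioxidant genes were 18 higher and 17 lower of 35 (median 0.005), and 2 of the 35 were higher in every ALL mouse than in any Middle-aged mouse, beside 0.251% of all genes. Msrb1, which repairs oxidized methionine, was at 91.0, 80.9, 82.7 and 86.5 CPM in ALL and 57.1 to 80.3 CPM (median 73.3) in Middle-aged (logFC = 0.26 ± 0.08). Sod1, the cytosolic superoxide dismutase, was at 110, 108, 108 and 111 CPM against 89.7 to 107 CPM (0.12 ± 0.07), and Mature mice had 107 to 133 CPM. Both differences were under 1.5-fold. The secreted Sod3 was at −0.51 ± 0.22.

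The stress, secreted factor, iron and calcium, and cell cycle lists had medians from −0.113 to 0.071. The integrated stress and unfolded protein response had a median of 0.022 (11 of 20 higher), with the serine synthesis enzyme Psat1 at −0.49 ± 0.24, heat shock proteins −0.036 (15 of 25 lower), secreted muscle factors 0.067 (11 of 16 higher), iron and calcium handling 0.071 (17 of 25 higher) and cell cycle genes −0.113 (15 of 22 lower). No member of the 41 lists or of the 3 added later passed FDR 0.05.

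**Figure D5:**
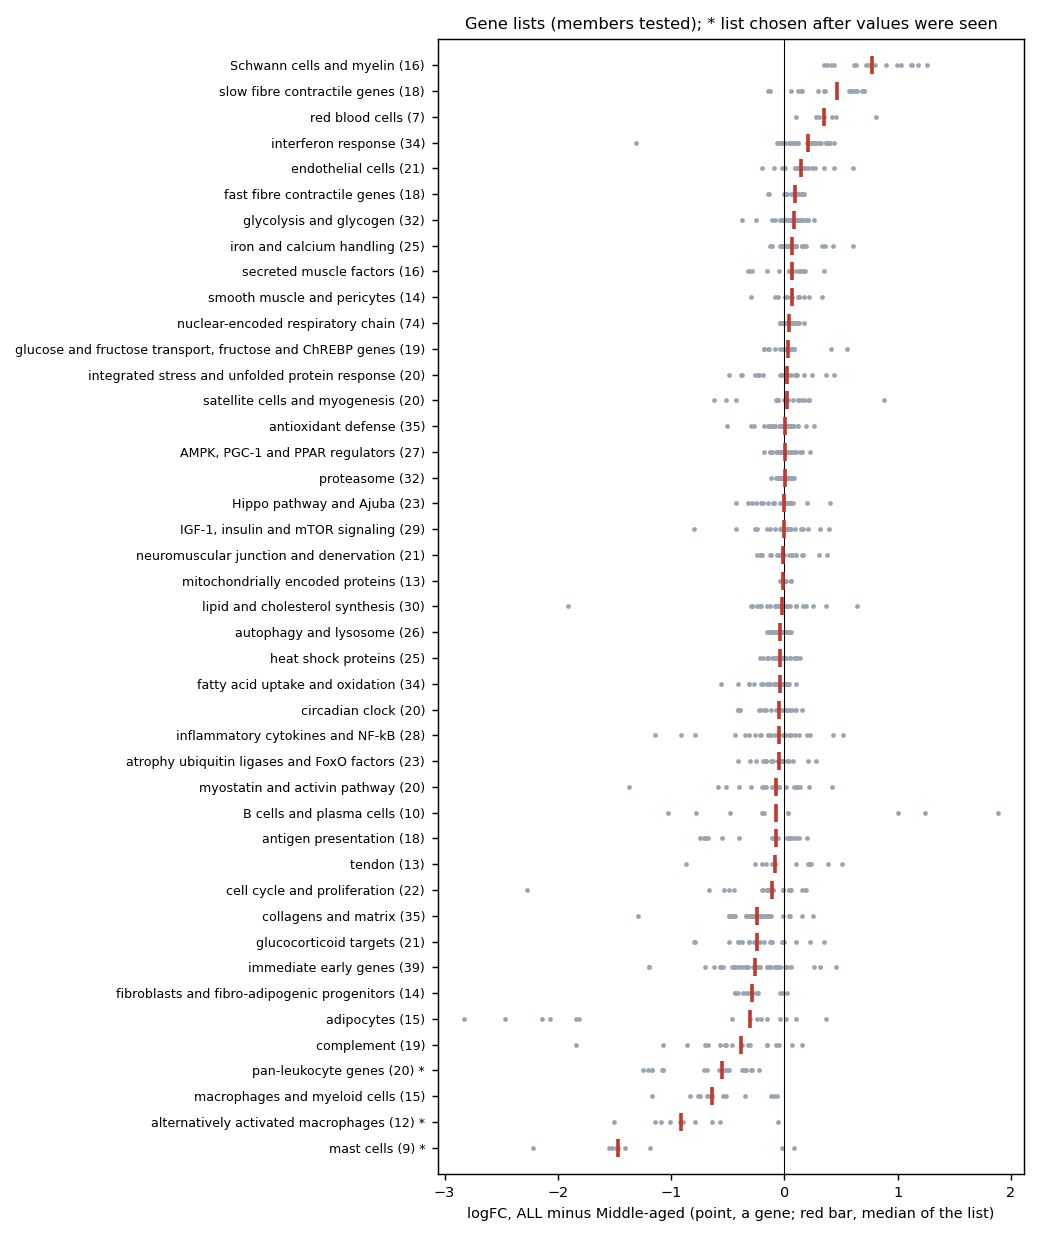
Each point is a tested gene placed by its logFC, ALL minus Middle-aged (x axis), in the row of its list, with the number of genes tested in parentheses and the list median as a red bar; lists with an asterisk were chosen after the values were seen. Medians run from −1.467 for mast cell genes to 0.772 for Schwann cell and myelin genes, and those of growth, proteasome and antioxidant genes lie near 0.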

How the data were processed

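Poly(A) RNA of gastrocnemius was made into stranded TruSeq libraries and sequenced as paired reads of 75 bases. The authors deposited a table with gene read counts, FPKM and TPM per library. The submitters' notes name FastQC 0.11.7, Trimmomatic 0.38, HISAT2 2.1.0, featureCounts and mm10, whereas the methods of the study name STAR and StringTie, so how reads of overlapping or multi-copy genes were assigned is not settled. The deposited counts (whole reads per gene) were tested, and the deposited TPM values served only for the tissue check. The table's 17 FPKM columns and 18 columns that match no sample were not used. Groups came from the sample titles, and mice were separate animals.

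From the counts, genes were filtered by filterByExpr (16731 of 45777 kept), scaled by TMM and fitted in edgeR 4.0.16 under R 4.3.3 (quasi-likelihood F test, 17 libraries, mean per group, Benjamini-Hochberg). CPM are per TMM-scaled library. SE is the absolute logFC divided by the square root of F, and intervals are 95%. The mitochondrial share used the 37 genes annotated on the mitochondrial genome. Tests were checked on simulated counts. DESeq2 1.42.0, limma 3.58.1 and other filters, scalings and sample sets were alternatives. Sequences were not printed, since no gene passed. Gene locations are those of GRCm38.p6 in RefSeq.

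Earlier results of these data were known when the comparison, its 41 gene lists and the rule for naming genes were settled. The rule took all called genes up to 40, then up to 10 genes per direction of smallest p with logCPM over 0, up to 4 members per list of smallest p, and 13 genes of the study and of muscle growth. Further members named by the text, and 3 lists, were chosen after their values were seen. Some genes the rule names are not reported here.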

Additional observations from a re-analysis of the deposited data

Results flagged for a closer look

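Within groups, the highest or lowest mouse was compared with its nearest neighbor, relative to the range of the group. In 218 such groups of 4 or 6 mice 22 had a mouse that stood apart by Dixon's limit, 10.1%. For independent, normally distributed values the limit flags about 1 in 20 groups. The genes were chosen from these same data and many vary together, so the 10.1% cannot show an excess over that rate. Of the 22 flags, 16 were in Middle-aged and 6 in ALL.

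Replicate 1 of Middle-aged stood apart as the highest mouse in 5 genes. It had 16.6 CPM of Hp, 15.8 CPM of Cidec and 14.7 CPM of Lep, which fat cells express, and also 11.9 CPM of Slc25a17 and 1.84 CPM of Psat1. Replicate 2 of Middle-aged was highest for the class II genes H2-Aa (23.3 CPM) and H2-Ab1 (18.2 CPM), for Olfr78 (3.28 CPM) and for Cpt1a (15.7 CPM). Replicate 5 of Middle-aged was highest for Klf4 (21.2 CPM), Fbxo32 (1200 CPM), Mmp9 (2.19 CPM) and E130102H24Rik (4.6 CPM, with 0 in the other 5 mice). In replicate 3 of Middle-aged, Foxo1 was the highest at 77 CPM and Gbp11 the lowest at 0 CPM, and in replicate 4 Mag was the highest at 0.557 CPM.

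In ALL, replicate 1 was the highest for Mid1 (10.2 CPM) and Alas2 (7.73 CPM), and replicate 3 was the only mouse with any Ccne1 (0.222 CPM). Replicate 4 was the highest for Lep (1.49 CPM) and the lowest for Gm527 (1.13 CPM). Replicate 2 was the lowest for Cpt1a (7.12 CPM). Neither total counts nor the mitochondrial share stood apart in any library of the 2 groups.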

How the results depend on the processing

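Of 22 alternatives to the test of all genes, 18 called 0 genes, and 4 called some. DESeq2 called 2 genes (Cilp and Dclre1c), edgeR's likelihood ratio test 4 (those, Ccn6 and Gbp11), limma voom with sample quality weights 1 (E130102H24Rik), and the fit without replicate 3 of ALL 1 (Ccne1), so that leaving out a mouse gave 0 to 1 calls. Among list members the calls were 1 in DESeq2 and 1 in the likelihood ratio test (Cilp), and 0 to 1 when a mouse was left out. The genes at an unadjusted p under 0.05 were 118 to 584 higher and 245 to 696 lower. Scaling by library size alone gave 118 higher and 449 lower, with a median logFC of −0.038. Without replicate 5 of Middle-aged the number lower was 245, and without replicate 1 of ALL 372 were higher. A 2-level term for a mitochondrial share over 19% gave 373 higher and 412 lower, and 0 calls.

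A fit with the replicate number as a replicate block called 0 genes (smallest FDR 0.152, 294 higher and 443 lower at an unadjusted p under 0.05). Deviations of same-numbered mice correlated at −0.062 to 0.24 over 4 pairs and those of other pairs at −0.17 to 0.12, and 1 of 4 ALL mice correlated best with its own number. With 4 pairs this cannot exclude a pairing. The study's methods describe none and treat each mouse as its own unit, so the mice were treated as unpaired.

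Of 107 genes followed over all alternatives, 101 kept their direction. The exceptions were Ajuba (−0.011 without replicate 4 of ALL, up to 0.329 with another mouse left out), Fbxo32 (0.016 with the replicate block, 0.078 without replicate 2 of ALL and replicates 2 and 5 of Middle-aged, a set chosen after seeing the data), Foxo1 (−0.575 to 0.083 with a mouse left out, positive without replicate 3 of Middle-aged), Foxo3 (−0.303 to 0.013, positive without replicate 2 of ALL), Mtor (0.024 with the 2-level mitochondrial term, and −0.1 to 0.021 with a mouse left out, positive without replicate 2 of ALL and, at 0.02, without replicate 3 of Middle-aged) and Alas2 (−0.118 to 1.063, negative without replicate 1 of ALL). The difference in mitochondrial share ran from −1.5 to 0.396 percentage points when a mouse was left out, being positive without replicate 1 of Middle-aged (0.396) or replicate 4 of ALL (0.193). The causes were not tested.

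The median of 22 of the 43 gene lists with a tested member kept its sign in all alternatives, among them the leukocyte, mast cell, complement, adipocyte, matrix, immediate early, Schwann cell, endothelial, interferon and glycolysis lists. It changed sign in at least 1 alternative for 21, including red blood cell, respiratory chain, antigen presentation, tendon, fatty acid, autophagy and atrophy genes. Another scaling, or leaving out the mitochondrial genes, turned the sign of 7 lists, whose medians were all within 0.022 of 0. The leukocyte and mast cell lists had been chosen after the values were seen.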

Other observations

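A few transcripts were at 0 in some libraries and counted in others, or had low counts throughout. These were named after their values were seen. The long noncoding RNA E130102H24Rik had 266, 267, 262 and 252 counts in the 4 ALL mice, 0 in 5 of the 6 Middle-aged mice and 342 in replicate 5 of Middle-aged, and of the Mature mice only replicate 4 had any (257). It was the only gene that passed under limma voom with sample quality weights (FDR = 0.0166). Of the 16731 genes tested, only E130102H24Rik and Gm20716 were at 0 in some of the 10 libraries and at 100 or more counts in all the rest. Gm20716 had 376 to 2880 counts in 3 ALL and 4 Middle-aged mice and 0 in the other 3.

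Gbp11, an interferon-induced GTPase of mice, had 0 counts in all 4 ALL mice and in replicate 3 of Middle-aged, and 11 to 17 counts in the other 5 Middle-aged mice. Ccne1, the cyclin that starts DNA replication, had 0 counts in 3 ALL mice and 14 in the other, against 11 to 24 in Middle-aged. Ccn6, a matrix-associated protein, had 24, 28, 15 and 22 counts in ALL and 5 to 11 in Middle-aged, without overlap, and 8 to 27 in Mature. Its logFC was 1.57 ± 0.33 (FDR = 0.801).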
